A study of Mus musculus with 4 samples.

Results

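Mitosis and spindle genes were examined in RNA sequencing of BV-2, a mouse line of transformed microglia, the resident macrophages of the brain. The group comprised 36 genes, listed by symbol for their roles in cell division, with earlier results of these data known, out of 24473 genes with deposited FPKM values (a level scaled to gene length and library size). All 36 were found in the files, and all 36 were expressed enough to be tested. There were 2 libraries labelled SIX2 knockdown (titled sh s1 and sh s2) and 2 control libraries labelled wild type (titled sh c1 and sh c2). Cells of both groups received lipopolysaccharide (LPS), a bacterial cell wall component, at 100 ng/mL for 24 h, so no untreated state was available. SIX2 is a homeobox transcription factor. The controls share the sh prefix with the knockdown, and the labels do not say what they were given. Nor do they say whether the replicates came from separate cultures, so the p-values cover the spread from library to library alone, and that spread may be technical.

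A dividing cell builds the products of these genes in the second part of the cycle and destroys many of them at the end of mitosis. Cyclins A and B switch on the kinase CDK1, a bipolar spindle attaches to chromosomes through kinetochores, and a checkpoint holds the anaphase-promoting complex until every kinetochore is attached. Many of the genes share a promoter element, the cell cycle genes homology region (CHR), which the MuvB complex reads together with B-MYB and FOXM1 when they are active, and CCAAT boxes bound by NF-Y. In a bulk sample of a line that divides in culture, the level of these transcripts reflects both how many cells are in G2 and M and how much RNA each holds, and these cannot be told apart.

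The libraries held 64.3 to 74.7 M counts in knockdown and 60.96 to 75.7 M in control samples. Six2 had a count of 0 in every library, which allows up to 12 counts (3 sequenced fragments), or 0.161 to 0.187 CPM (counts scaled to library size) in knockdown and 0.159 to 0.197 CPM in control libraries, counting error only, so the knockdown could not be checked on its target. Of 12 microglia and macrophage markers, 10 exceeded 1 CPM in every library, with summed levels of 1558 to 1622 CPM in knockdown and 1812 to 1847 CPM in control libraries. Of 11 tested markers 3 fell, 0 rose and 8 did not pass with edgeR's test and Benjamini-Hochberg adjustment, where 0.547% of all tested genes were called lower; those named were chosen after their values were seen. Adgre1, which encodes F4/80, had 166 and 176 CPM in knockdown and 255 and 272 CPM in control libraries (adjusted p = 0.0198 by edgeR), Csf1r, the CSF1 receptor gene, had 231 and 215 CPM in knockdown and 309.9 and 312 CPM in control libraries (adjusted p = 0.0426 by edgeR), and Aif1, which encodes IBA1, had 9.61 and 11.5 CPM in knockdown and 20.1 and 23.5 CPM in control libraries (adjusted p = 0.0440 by edgeR). Trem2, a lipid-sensing receptor gene, did not pass and lay the other way, with 87.8 and 76.4 CPM in knockdown and 58.1 and 59.9 CPM in control libraries (log2 fold change 0.48 ± 0.10 SE, adjusted p = 0.0969 by edgeR). P2ry12 had 0 counts in both knockdown libraries and 24 and 4 in controls, and Cx3cr1 had 19 and 54 in knockdown and 30 and 27 in control libraries, both at trace level. No marker of neurons, astrocytes, oligodendrocytes, fibroblasts or endothelium exceeded 1 CPM in every library. The 4 oligodendrocyte markers summed to 0.311 to 7.95 CPM in knockdown and 14.2 to 14.9 CPM in control libraries, and the 5 neuron markers to 0 to 3.16 CPM in knockdown and 5.71 to 6.18 CPM in control libraries. The 4 astrocyte markers summed to 0.451 to 0.736 CPM in knockdown and 1.63 to 1.95 CPM in control libraries. Fibroblast and endothelial sums reached at most 0.700 CPM in knockdown and 1.33 CPM in control libraries, and the part of these marker levels in the values below was not tested.

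Transcripts of all members were detected in every library. The authors' FPKM, averaged over the 4 libraries, ran from 98.4 for Cdc20, the activator of the anaphase-promoting complex, to 4.81 for Cenpf, a large outer kinetochore protein. Cdc20 had 103 and 98.7 FPKM in knockdown libraries and 100.4 and 91.6 FPKM in control libraries. Plk1, a kinase of mitotic entry and centrosome maturation, followed with 92.4 and 83.7 FPKM in knockdown and 89.2 and 87.3 FPKM in control libraries. Ube2c, the ubiquitin-conjugating enzyme that works with the anaphase-promoting complex, had 91.4 and 86.4 FPKM in knockdown and 88.0 and 84.6 FPKM in control libraries. These genes, with the centrosome and spindle kinase Aurka at a mean of 81.7 FPKM, stood above the rest of the group. At the low end were Cenpf (4.75 and 4.92 FPKM in knockdown, 5.27 and 4.30 in control libraries), Kif23, a midzone kinesin of cytokinesis (7.72 and 7.43 FPKM in knockdown, 7.29 and 6.79 in control libraries), and Nuf2, a subunit of the kinetochore's microtubule-binding NDC80 complex (7.76 and 8.35 FPKM in knockdown, 7.38 and 7.17 in control libraries). Even the lowest count of any member in any library was 2248, that of Ttk in control 2, and the highest was 41409, that of Mki67 in knockdown 1.

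**Figure D1:**
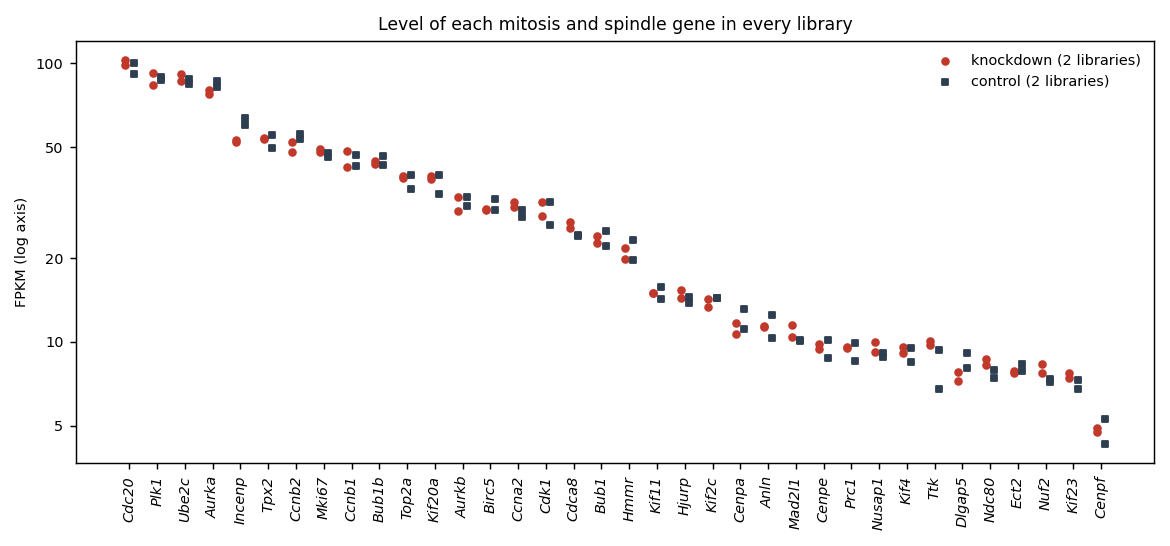
Authors' FPKM (log axis) of the 36 mitosis and spindle genes, ordered by their mean, with the 2 knockdown libraries as circles left of the 2 control libraries as squares. Levels span from 98.4 for Cdc20 to 4.81 for Cenpf, and for most genes the circles and squares lie close together.

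The deposited annotation attached the term cell division to 24 of the 36, spindle to 18 and the centromeric region of chromosomes to 15, terms that restate how the genes were chosen. The members were scattered over 16 chromosomes, with at most 6 on any (chromosome 2: Ube2c, Aurka, Bub1, Bub1b, Tpx2 and Nusap1). Exons of 9 members overlapped exons of a gene on the opposite strand (Ccna2, Cdc20, Ube2c, Plk1, Cdca8, Kif4, Nusap1, Prc1 and Kif20a) and Top2a overlapped a gene model on its own strand. Whether reads were assigned by strand is not stated, so the values of these genes are less certain.

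Promoter windows from RefSeq (build GRCm38.p6), from 250 bases before the transcription start to 50 after it, were found for 30 of the 36 members; Ccna2, Aurkb, Incenp, Tpx2, Dlgap5 and Kif20a had none. The CHR was searched as TTTGAA and the CCAAT box as CCAAT, each on both strands. A CHR was present in 23 of 30 windows (76.7%), against 17.9% of all 32851 windows in the table and 12.4% of windows of tested genes. Each member's window was the one nearest its annotated 5′ end, while tested genes took the first window of each symbol. On the minus strand, the start sites of Kif2c (117178772) and Cdca8 (124936917) still lay inside genes that begin at 117182639 and 124939311. In 21 of the 30 (70.0%) a CHR began within 50 bases of the start, against 4.94% of all windows. A CCAAT box was present in 23 of 30 (76.7%), against 37.4% of all windows, and 16 (53.3%) had at least 2, against 11.7%. Both elements together occurred in 20 of 30 (66.7%) and in 6.95% of all windows. In 18 of these 20 the last CHR lay after the last CCAAT box, and in 1 (Cdca8) the elements shared bases. The variant TTCGAA was found in 3 members, Top2a, Bub1 and Bub1b. Mad2l1, Nuf2, Birc5 and Nusap1 had none of these letters in the window, which says nothing about the factors that act there.

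The windows below run from position -100 to 30 bases from the start and are written 5′ to 3′ on the gene's strand, with CHR and CCAAT matches on either strand in capitals (TTCAAA and ATTGG are the reverse strand forms). They show CCAAT boxes with a CHR near the start, in genes of the cyclin kinase (Cdk1, chr10:69352883-69353012, minus strand, and Ccnb2, chr9:70421525-70421654, minus strand), of anaphase (Cdc20, chr4:118437314-118437443, minus strand), of the midzone (Prc1, chr7:80294351-80294480, plus strand, and Kif23, chr9:61946770-61946899, minus strand), of the checkpoint (Ttk, chr9:83834589-83834718, plus strand) and of the passenger complex (Cdca8, chr4:124936888-124937017, minus strand). Nuf2 (chr1:169531435-169531564, minus strand) is shown as a member with neither motif.
Cdc20: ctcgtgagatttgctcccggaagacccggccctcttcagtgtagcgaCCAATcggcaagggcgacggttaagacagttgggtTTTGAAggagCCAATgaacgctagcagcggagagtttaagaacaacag
Cdk1: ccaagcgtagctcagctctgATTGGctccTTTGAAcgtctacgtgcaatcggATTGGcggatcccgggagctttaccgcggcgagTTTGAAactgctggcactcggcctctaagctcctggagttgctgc
Ccnb2: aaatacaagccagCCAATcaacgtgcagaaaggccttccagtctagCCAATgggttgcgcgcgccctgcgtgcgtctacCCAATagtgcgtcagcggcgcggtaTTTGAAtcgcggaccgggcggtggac
Prc1: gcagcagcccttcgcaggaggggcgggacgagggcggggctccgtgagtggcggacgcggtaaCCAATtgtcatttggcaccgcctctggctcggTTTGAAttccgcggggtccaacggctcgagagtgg
Kif23: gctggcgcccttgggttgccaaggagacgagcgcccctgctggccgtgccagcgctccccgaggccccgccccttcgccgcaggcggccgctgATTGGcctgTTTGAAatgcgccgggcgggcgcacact
Ttk: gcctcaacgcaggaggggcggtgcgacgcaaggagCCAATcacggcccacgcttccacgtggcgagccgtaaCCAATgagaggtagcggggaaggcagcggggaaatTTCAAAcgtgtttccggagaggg
Cdca8: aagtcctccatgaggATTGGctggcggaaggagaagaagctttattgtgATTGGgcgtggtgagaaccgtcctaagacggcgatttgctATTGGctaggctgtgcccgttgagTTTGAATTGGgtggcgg
Nuf2: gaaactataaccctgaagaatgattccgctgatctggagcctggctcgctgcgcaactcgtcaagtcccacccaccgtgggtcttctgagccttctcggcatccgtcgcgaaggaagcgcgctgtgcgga
The CHR began at position -18 in Cdc20, -15 in Cdk1, 5 in Ccnb2, -5 in Prc1, 3 in Kif23, 8 in Ttk and 14 in Cdca8.

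**Figure D2:**
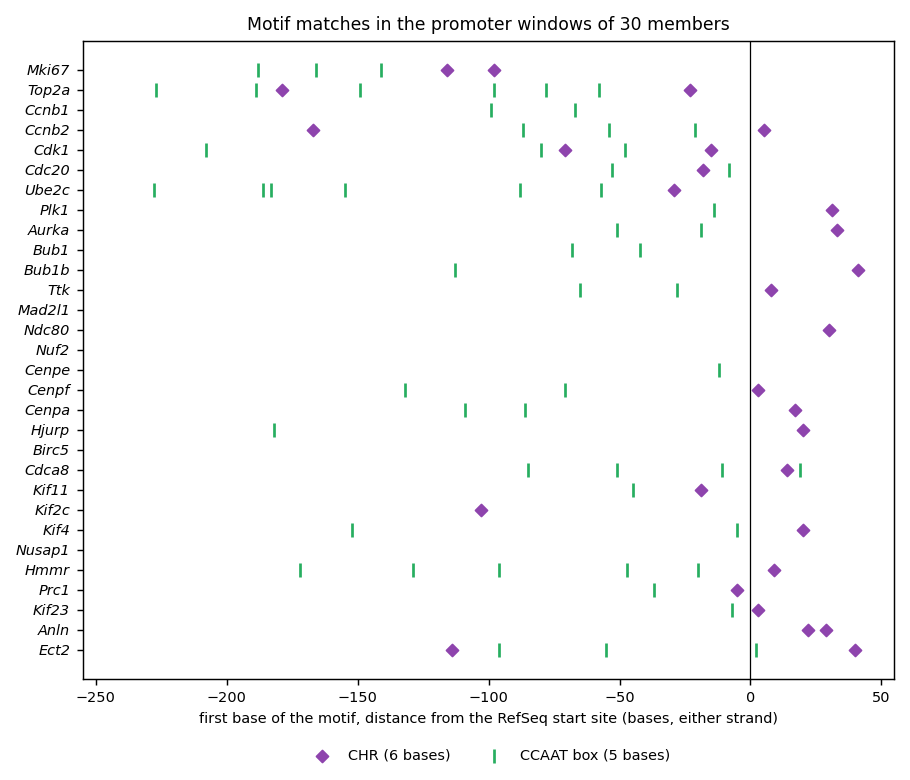
First base of each CHR match (diamonds) and CCAAT match (bars) on either strand, as distance in bases from the RefSeq start site, in the windows of 30 members. A CHR lies within 50 bases of the start in 21 of 30 windows, and the last CHR lies after the last CCAAT box in 18 of the 20 windows that hold both.

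The comparison of knockdown with control asked whether the cell division genes differ when SIX2 is targeted under LPS. They did not pass the test: with edgeR's quasi-likelihood test, 0 of 36 members were called at a Benjamini-Hochberg adjusted p of 0.05, where 0.953% of 15733 tested genes were called (0.407% higher and 0.547% lower). Without adjustment, at p of 0.05, the only member was Incenp, with 0 higher and 1 lower in knockdown, against 7.52% and 6.70% of all tested genes. DESeq2 and limma-voom also called 0 of 36. Fitted log2 fold changes (knockdown minus control) ran from -0.19 to 0.33, with a median of 0.06 and 27 of 36 above 0, beside a median of -0.01 and 48.9% above 0 over all tested genes. Among 4722 tested genes in the members' range of CPM the median was 0.04 and 58.5% were above 0. The 95% interval of the fold stayed within 1.5-fold in either direction for 35 of 36 members, Ttk being the exception, so a change of that size lies outside the intervals of the others. Their highest upper bound was 1.31 (Nuf2) and their lowest lower bound 0.758 (Dlgap5), so changes smaller than these lie inside some of the intervals. The standard errors of all 36 members were 0.07 to 0.16 on the log2 scale.

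**Figure D3:**
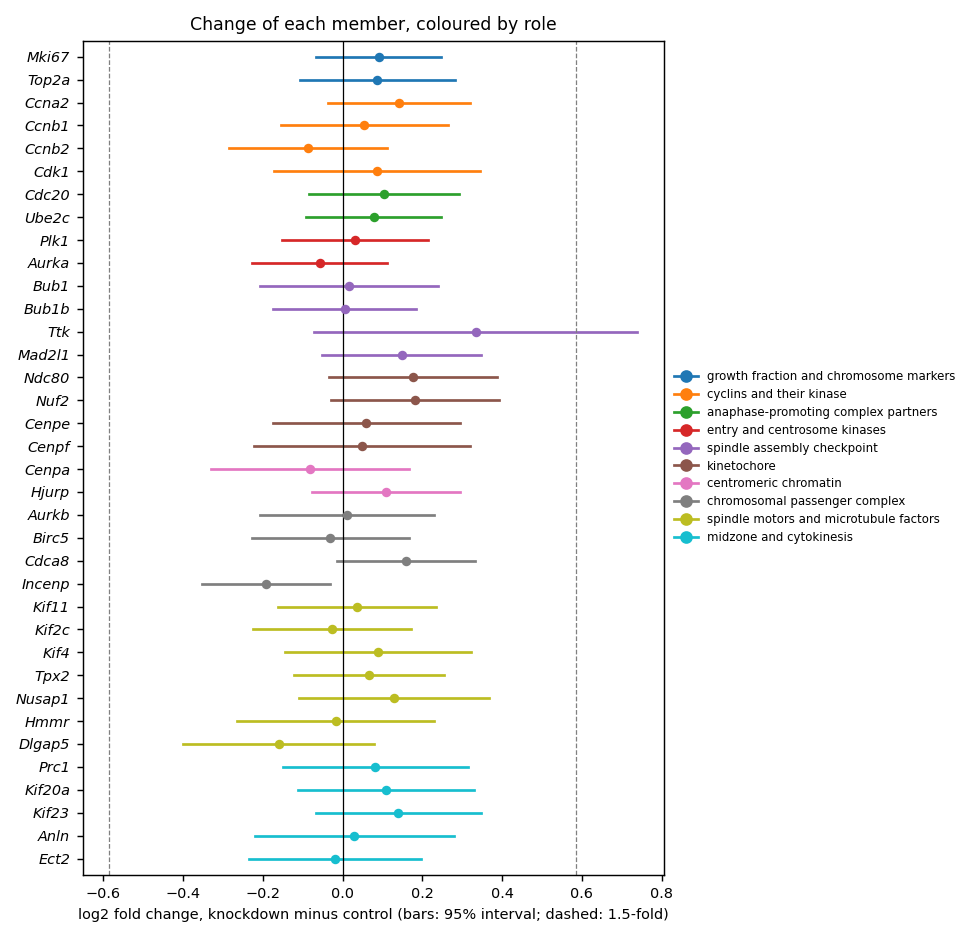
Log2 fold change, knockdown minus control, with the 95% interval from the edgeR fit for each of the 36 members, coloured by role; dashed lines mark 1.5-fold. Of the 36 intervals, 35 lie inside the dashed lines and 35 include 0; Ttk crosses the upper line and Incenp lies below 0.

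The upward lean of the members' median depended on which control library was kept. For 12 of the 36 members both knockdown libraries lay above both controls, beside 23.8% of all tested genes. Among the 4722 tested genes in the members' range of CPM, 1597 lay that way. Whether control 2 lay low or control 1 lay high was not tested. Control 2 held the lowest value of the 4 libraries for 25 of the 36 members, while control 1 held the highest for 14 and exceeded control 2 for 31. The summed level of the 36 genes was 5387 and 5360 CPM in knockdown libraries and 5364 and 5034 CPM in control libraries. Control 1 thus lay with both knockdown libraries and control 2 below them. Without control 2 the median log2 fold change was -0.0003 and 17 of 36 members were above 0, whereas without control 1 the median was 0.12 and 28 were above 0. The difference between group means was smaller than the larger gap between replicates for 26 of 36 members. The median absolute difference between groups was 0.09 on the log2 scale for members, beside 0.12 over tested genes in the same range of CPM, and the median gap between replicates was 0.07 in knockdown and 0.12 in control libraries.

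**Figure D4:**
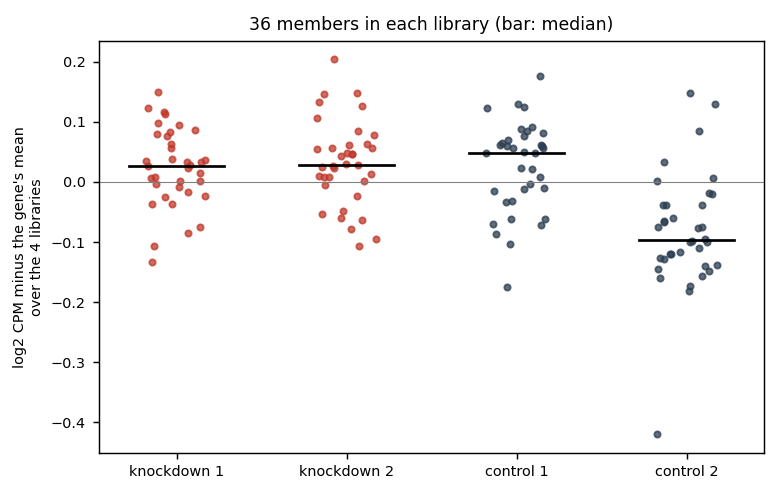
Log2 CPM of each of the 36 members in each library minus the gene's mean over the 4 libraries, with the median as a bar. Both knockdown libraries and control 1 have medians above 0 and control 2 has most members below 0; the lowest point is Ttk in control 2.

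Markers of the growing fraction and cyclins did not pass. Mki67, which encodes the proliferation marker Ki-67, had 559 and 546 CPM in knockdown and 530.0 and 508 CPM in control libraries (log2 fold change 0.09 ± 0.07 SE, adjusted p = 0.609 by edgeR, 95% interval of the fold 0.955 to 1.19). Its groups did not overlap, but the nearest libraries of the groups were closer together than the 2 controls. Top2a, the topoisomerase that untangles sister chromatids, had 391 and 400.5 CPM in knockdown and 397 and 348 CPM in control libraries, which overlap. Among cyclins, Ccna2 (cyclin A2, of S phase and G2) had the largest fitted value, 0.14 ± 0.07, Ccnb1 had 0.05 ± 0.09 and Ccnb2, whose FPKM was the highest of these 4 genes, -0.09 ± 0.08. Ccnb2 had 89.5 and 83.3 CPM in knockdown and 94.2 and 89.4 CPM in control libraries. Cdk1, their kinase, had 158 and 177 CPM in knockdown and 143 and 172 CPM in control libraries, with more spread inside each group than between them.

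The 4 regulators of mitotic entry and exit did not pass. Cdc20 had 216 and 208 CPM in knockdown and 207 and 187 CPM in control libraries (adjusted p = 0.631 by edgeR), and its partner Ube2c had 267 and 254 CPM in knockdown and 253 and 241 CPM in control libraries. Both were narrowly without overlap. Plk1 had 228 and 208 CPM in knockdown and 217 and 210.0 CPM in control libraries (fold 1.02, 95% interval 0.900 to 1.16), and the fitted value for Aurka was -0.06 ± 0.07. The control libraries of Plk1 lay inside the range of the knockdown libraries.

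In the spindle assembly checkpoint 0 of 4 genes passed. Bub1b, which encodes the inhibitor BUBR1, had 209 and 215 CPM in knockdown and 220.1 and 202 CPM in control libraries (fold 1.00, 95% interval 0.887 to 1.14), and Bub1, a kinetochore kinase, had a fitted value of 0.02 ± 0.09. The sign of both depends on the scaling of libraries. Mad2l1, the checkpoint protein MAD2, had 98.5 and 109 CPM in knockdown and 93.6 and 93.4 CPM in control libraries (0.15 ± 0.08). Ttk, the kinase MPS1 that starts the checkpoint, was singled out after its values were seen because its interval was the widest of the group. It had 54.0 and 56.0 CPM in knockdown and 50.9 and 36.4 CPM in control libraries (log2 fold change 0.33 ± 0.16 SE, adjusted p = 0.445 by edgeR, 95% interval of the fold 0.951 to 1.67). Only control 2 was low, and without it the value was 0.11 ± 0.11; without control 1 it was 0.60 ± 0.12 (adjusted p = 0.170 by edgeR).

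At the kinetochore and centromere 0 of 6 genes passed. Ndc80 and Nuf2, whose products pair in the same complex, had like values, 0.18 ± 0.09 each (adjusted p = 0.437 and 0.429 by edgeR). Nuf2 had 55.3 and 59.8 CPM in knockdown and 51.8 and 49.7 CPM in control libraries, with no overlap. The FPKM ratio of Ndc80 to Nuf2 was 1.12 and 0.987 in knockdown and 1.07 and 1.03 in control libraries. Cenpe, a kinesin that carries chromosomes to the spindle equator, had 95.2 and 92.1 CPM in knockdown and 97.1 and 82.7 CPM in control libraries. Cenpf had 82.5 and 85.7 CPM in knockdown and 89.9 and 72.6 CPM in control libraries; for both genes the knockdown libraries lay between the controls. Cenpa, the histone H3 variant of centromeres, had a fitted value of -0.08 ± 0.10, and Hjurp, the chaperone that deposits it, had 144 and 135 CPM in knockdown and 134 and 126 CPM in control libraries (0.11 ± 0.08).

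The chromosomal passenger complex, which corrects faulty attachments and later guides cytokinesis, held the lowest unadjusted p of the group. Incenp (chromosome 19, 9872296 to 9899551, minus strand, GRCm38), the scaffold that activates Aurora B, had 259 and 255 CPM in knockdown and 287 and 301 CPM in control libraries. Both knockdown libraries lay below both controls, and the fold was 0.875 (95% interval 0.783 to 0.978, adjusted p = 0.270 by edgeR), so it did not pass over all genes. Its adjusted p ran from 0.180 to 0.652 over 15 other settings and its sign was kept in all of them. Cdca8, which encodes the partner borealin, had 157 and 149.6 CPM in knockdown and 139 and 135 CPM in control libraries, and a fitted value of 0.16 ± 0.07 (adjusted p = 0.392 by edgeR). Aurkb, the kinase, had 0.01 ± 0.09, with a sign that depends on the scaling, and Birc5 (survivin) had -0.03 ± 0.08. Opposite fitted values for subunits of this complex show in the FPKM ratio of Incenp to Cdca8, which was 1.98 and 2.04 in knockdown and 2.47 and 2.66 in control libraries. This ratio was computed after both values were seen and is a description without a test.

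Motors, spindle factors and cytokinesis genes did not pass either, 0 of 7 and 0 of 5. Tpx2, an activator of Aurora A and nucleator of spindle microtubules, had the highest FPKM among the motors and spindle factors, with 282 and 285 CPM in knockdown and 286 and 255 CPM in control libraries. Fitted values were 0.04 for Kif11, the motor that separates spindle poles, -0.03 for Kif2c, a microtubule depolymerase, 0.09 for the chromokinesin Kif4, 0.13 for Nusap1, -0.02 for the hyaluronan receptor and spindle protein Hmmr, and -0.16 for Dlgap5 (HURP), which stabilises kinetochore fibres. Dlgap5 and Incenp were the 2 members with both knockdown libraries below both controls, and 12 members had both above; these 14 are 38.9% of the members, beside 47.6% of all tested genes (23.8% in each direction). For Dlgap5 the values were 55.6 and 60.0 CPM in knockdown and 68.9 and 60.2 CPM in control libraries, nearly touching. In cytokinesis, Kif20a, a midzone kinesin, had 187 and 192 CPM in knockdown and 190.1 and 162 CPM in control libraries, and Kif23 had 68.7 and 66.4 CPM in knockdown and 63.8 and 58.8 CPM in control libraries. The midzone bundler Prc1, the ring scaffold Anln and the RhoA activator Ect2 had fitted values of 0.08, 0.03 and -0.02.

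Other genes of the division machinery were listed by function, and 0 of 133 tested genes in 6 of these lists passed edgeR's test, while 14 were higher and 3 lower without adjustment. Of all tested genes 7.52% were higher and 6.70% lower at that p, and of the 4722 in the members' range of CPM 639 were higher and 319 lower. DESeq2 called 6 genes higher and 2 lower over these and the lists of transcription factors and replication genes, where it called 4.19% of all genes to which it gave an adjusted p. Of 34 other kinetochore and centromere genes, 26 had fitted values above 0 (median 0.12), beside 48.9% of all tested genes, and 8 were higher without adjustment, beside 7.52% of all tested genes. The lowest p belonged to Cenpq, a subunit of the inner kinetochore, with 39.5 and 42.8 CPM in knockdown and 30.2 and 23.1 CPM in control libraries (0.63 ± 0.15, adjusted p = 0.132 by edgeR), and to Sgo1, the protector of centromeric cohesion (0.34 ± 0.09). The anaphase-promoting complex and separase (19 genes) had a median of 0.02, and Anapc2, its cullin subunit, had -0.29 ± 0.08 and Ube2s -0.39 ± 0.16. Condensin and cohesin (19 genes) had a median of 0.07, with Pds5a, a cohesin regulator, at -0.37 ± 0.07 (adjusted p = 0.0884 by edgeR) and the cohesin loader Nipbl at 0.19 ± 0.09. Other spindle and cytokinesis genes (33) had a median of 0.03, and the lowest p belonged to Cip2a (0.42 ± 0.10) and Haus2 (0.38 ± 0.12). Centrosome duplication genes (10) had a median of 0.02, with Sass6 at -0.31 ± 0.13 and Cep152 at 0.21 ± 0.15. G2 to M regulators (18) had a median of 0.04, with the cyclin F gene Ccnf at 0.33 ± 0.08 and the CDK1-inhibiting kinase Pkmyt1 at 0.42 ± 0.11.

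The transcription factors of the cycle were the list with a gene that passed. Mybl2 (chromosome 2, 163054687 to 163084688, plus strand, GRCm38), which encodes B-MYB, rose to 445 and 403 CPM in knockdown libraries, against 310 and 298 CPM in control libraries. Its mean was 424 ± 30.0 CPM in knockdown and 304 ± 8.44 CPM in control libraries (SD, n = 2 each), a log2 fold change of 0.48 ± 0.08 (95% interval of the fold 1.23 to 1.58). Its adjusted p was 0.0483 by edgeR, close to the threshold. Its sign was the same in all 15 other settings, but it stayed past the threshold in 4 of them and missed it in 11, among them each fit that left out a library (adjusted p from 6.73e-05 with DESeq2 to 0.286). Foxm1, named after its values were seen as the other activator of the mitotic program, had 59.3 and 53.2 CPM in knockdown and 44.6 and 35.7 CPM in control libraries (0.49 ± 0.13, adjusted p = 0.174 by edgeR) and did not pass. Of 21 tested factors 1 rose, 0 fell and 20 did not pass, where 0.407% of all tested genes were called higher and 0.547% lower. Without adjustment 6 of the 21 were higher and 1 lower, beside 7.52% and 6.70% of all tested genes. Of the 4722 in the members' range of CPM, 639 were higher and 319 lower. The median of the 21 factors was 0.12, beside -0.01 over all tested genes and 0.04 over those in the members' range of CPM.

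DNA replication genes, which act earlier in the cycle, are set beside the mitotic ones. Of 40 tested, 0 passed edgeR's test, and 15 (37.5%) were higher and 0 lower without adjustment, beside 7.52% higher and 6.70% lower of all tested genes and 639 higher and 319 lower of the 4722 in the members' range of CPM. The mitosis and spindle genes had 0 higher and 1 lower. Their median log2 fold change was 0.06, beside 0.16 for the replication genes. Mcm4, a subunit of the replicative helicase, had 281 and 283 CPM in knockdown and 229 and 219 CPM in control libraries (0.33 ± 0.07, adjusted p = 0.0994 by edgeR). DESeq2 called Mcm4 higher (adjusted p = 0.00514), and it was not called in the other 14 settings, where its adjusted p ran up to 0.372. Ccne1 (cyclin E1) had 0.31 ± 0.08. The summed level of the replication genes was 6147 and 6215 CPM in knockdown and 5647 and 5461 CPM in control libraries, which did not overlap. That of the mitotic genes overlapped only narrowly, with 5364 CPM in control 1 and 5360 CPM in knockdown 2. Without control 2 the replication median was 0.13, against -0.0003 for the mitotic genes. Without control 1 the medians lay closer, 0.19 for the replication and 0.12 for the mitotic genes. The difference between the lists was not tested.

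**Figure D5:**
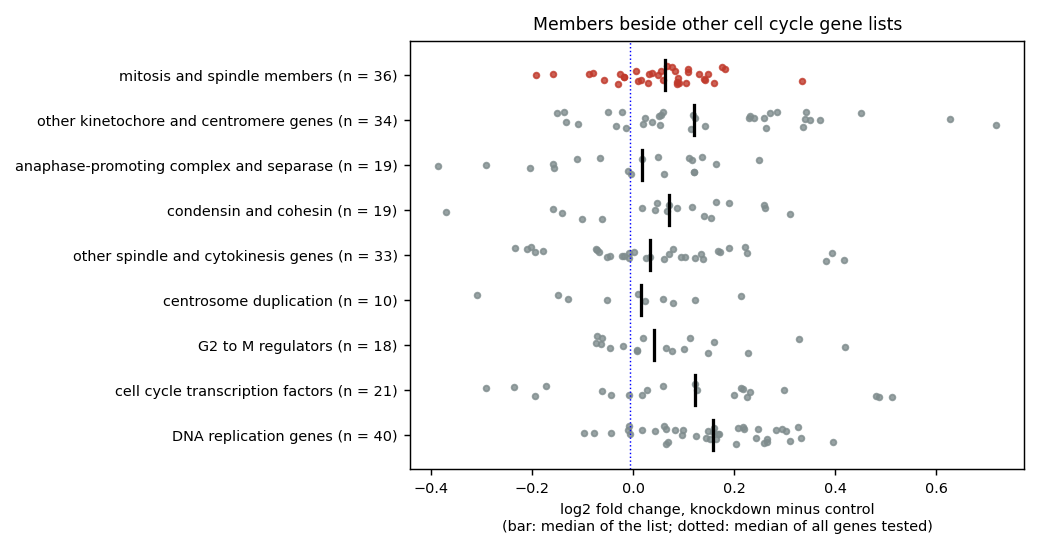
Log2 fold change, knockdown minus control, of each tested gene in the mitosis and spindle group and in 8 other lists, with each list's median as a bar and the median of all tested genes dotted. The 36 mitotic genes spread from -0.19 to 0.33 around 0.06, and the replication genes have a median of 0.16.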

How the data were processed

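RNA was sequenced from 4 BV-2 libraries. Per the labels' protocols, oligo-dT selected RNA was made into dUTP strand-marked libraries and read paired-end on a NovaSeq. The authors deposited estimated counts, whole and not normalised; which program counted them is not stated in the labels or headers. Their low values peak at multiples of 4, so 1 fragment was taken as about 4 counts. FPKM, as the file headers name the authors' other values, takes account of gene length and depth. The submitters' processing notes name Bowtie 0.12.2 and build mm8, yet 35 of 36 members had the coordinates of GENCODE M21 on GRCm38, which is the build given here. Another 12 columns that match no labelled sample were not used.

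Counts, already whole, were tested over all genes in R 4.3.3 with edgeR 4.0.16 (filterByExpr, TMM, robust quasi-likelihood fit, two-sided, Benjamini-Hochberg over 15733 genes); CPM are TMM-scaled except the Six2 limits and the summed levels of cell type markers, which use library totals. SE was derived as the absolute log2 fold change divided by the square root of the test's F statistic. The 95% intervals were built from that SE and a t quantile with the fit's degrees of freedom. Replicates differed by more than counting error (chi-square of fragments over its degrees of freedom, 16.9 in knockdown and 16.2 in control). The code was tested on simulated data. The members and lists were chosen with earlier results of these data known. Per-library values are given for members at an unadjusted p of 0.05, the 3 highest and 3 lowest by FPKM and the highest of each role group, and for some others chosen after their values were seen (Ttk, Cdca8, Mad2l1, Dlgap5, Top2a, Cdk1, Foxm1); in other lists, genes that passed or up to 2 with the lowest p are named. Alternatives used DESeq2 1.42.0, limma 3.58.1 and other settings. No protein sequences were used.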

Additional observations from a re-analysis of the deposited data

How the results depend on the processing

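No mitosis or spindle gene was called in any of the 15 alternatives (0 of 36 in each), and their median log2 fold change ranged from -0.0003 without control 2 to 0.12 without control 1. The number of genes called over the whole table was 150, against 680 with DESeq2, 65 with limma-voom, 297 with no filter on low counts, 7 without the robust option, 0 with limma on log2(FPKM + 1) or log2(FPKM + 0.1) (2513 and 2434 at an unadjusted p of 0.05), and 41 to 112 on leaving out a library. Leaving out a library gave 0 to 2 members higher and 0 to 1 lower at an unadjusted p of 0.05. In the other lists 1 gene was higher and 0 lower; DESeq2 called 6 higher and 2 lower, and limma-voom, RLE factors, library totals, the fit without the robust option, both FPKM fits and each fit without a library called 0 higher. Members with both knockdown libraries below both controls numbered 2, against 5 with library totals, 4 with counts divided by 4 and 5 with FPKM. In the main fit 23.8% of all tested genes lay that way, and the shares under the other scalings are not given here.

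The replicate numbers were not known to pair samples: the deviations of same-numbered libraries had a correlation of 0.05 over all tested genes. With the replicate block, 0 genes were called in all (2055 at an unadjusted p of 0.05), and 0 members and 0 genes of the other lists.

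Signs held in all alternatives for 17 of 36 members; the other 19 changed sign in at least 1, and 14 of them only on leaving out a library. With library totals, the value was -0.00209 for Plk1, -0.0174 for Bub1, -0.0271 for Bub1b, -0.0225 for Aurkb and -0.00324 for Anln. With log2(FPKM + 1), the value was -0.00516 for Plk1, -0.0154 for Bub1, -0.0268 for Bub1b and -0.0247 for Aurkb. With log2(FPKM + 0.1), the value was -0.00523 for Plk1, -0.0160 for Bub1, -0.0273 for Bub1b and -0.0254 for Aurkb. With the stricter filter (1 CPM in every library), the value was -0.00103 for Bub1, -0.0108 for Bub1b and -0.00671 for Aurkb. With DESeq2, the value was -0.00277 for Bub1b. With RLE factors, the value was -0.00362 for Bub1b. With counts divided by 4, the value was -0.00894 for Bub1b and -0.00433 for Aurkb. On leaving out a library the values ran from -0.000504 to 0.183 for Top2a, -0.0405 to 0.146 for Ccnb1, -0.0393 to 0.225 for Cdk1, -0.0412 to 0.101 for Plk1, -0.0798 to 0.12 for Bub1, -0.0533 to 0.0694 for Bub1b, -0.0494 to 0.179 for Cenpe, -0.0943 to 0.210 for Cenpf, -0.186 to 0.0341 for Cenpa, -0.0769 to 0.0938 for Aurkb, -0.101 to 0.0455 for Birc5, -0.0390 to 0.119 for Kif11, -0.0756 to 0.0244 for Kif2c, -0.0122 to 0.153 for Tpx2, -0.133 to 0.110 for Hmmr, -0.0241 to 0.199 for Prc1, -8.22e-05 to 0.230 for Kif20a, -0.102 to 0.176 for Anln and -0.0633 to 0.0289 for Ect2. Six2 had 0 counts, and whether it lay below the depth limit or was not transcribed was not tested. Every member had 2248 counts or more. With 2 libraries a group, the cause of these shifts was not tested; a fit that leaves out a library assumes that the lone one varies like the other group.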
